A study of Mus musculus with 6 samples.

Results

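Cytochrome P450 enzymes are heme proteins that insert oxygen into fatty acids, sterols, retinoids, vitamin D, drugs and pollutants. The genes described here are the mouse P450 genes, named Cyp followed by digits, a letter and digits, that had 3 or more probe sets of their own on the array, apart from Cyp11a1, Cyp17a1, Cyp51 and Cyp26b1, which were left out by name. There were 61 such genes with 666 probe sets, of 15207 genes measured in the same way. The set is largely one of enzymes outside steroid synthesis, but the rule keeps Cyp21a1 and Cyp11b2, whose enzymes make adrenal steroid hormones. Of the other P450 symbols on the array, 5 had fewer than 3 probe sets of their own and 4 had names of another form.

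RNA came from whole testes of mice on a mixed C57BL/6 and 129 background, hybridised to exon arrays. The Fn adult group was 3 arrays of adult testes homozygous for the Fn allele of Dazap1, which encodes an RNA-binding protein and from which an aberrant protein with an inserted segment is made. The Wt P21 group was 3 arrays of wild-type testes at postnatal day 21. Genotype and age therefore differ together between the groups and cannot be told apart. The study describes Fn mice as growth retarded and rarely living to adulthood, with adult testes that hold spermatogonia and spermatocytes but no haploid spermatids. The arrays of a group are labelled as biological replicates, and the sources used here do not say whether each came from a separate animal, so that p-values measure the spread between these RNA preparations.

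P450 enzymes work in 2 main settings. Most of those of the endoplasmic reticulum receive electrons from the reductase Por, and those of mitochondria from the ferredoxin Fdx1. In the testis the family is best known for the Leydig cell enzymes of androgen synthesis. Members of families 1, 2 and 3 are known mainly from the liver, lung and gut, where they oxidise foreign compounds and arachidonic acid, and those of family 4 hydroxylate the ends of fatty acids and leukotrienes.

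The level of a gene was the median of the deposited log2 values over its probe sets, and all levels and differences are in these log2 units. A gene passed the test where limma gave an adjusted p under 0.05 over all 15207 genes. Where a group's mean lay under 7.56, the highest of the 6 arrays' lower quartiles over all probe sets, the difference is given without a fold. In bulk tissue, fewer cells of a type and less RNA per cell cannot be told apart. Array medians were 9.05 to 9.10 in Fn adult and 8.76 to 9.05 in Wt P21. The median SD of a P450 gene was 0.18 among Fn adult arrays and 0.20 among Wt P21 arrays, against 0.11 in Fn adult and 0.21 in Wt P21 over all genes.

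The libraries were checked against markers of testis cells. For scale, 8.07% of all genes rose and 0.914% fell, while 58.7% had higher values and 41.2% lower ones. The Fn adult arrays all lay below the Wt P21 arrays for 8.96% of all genes. Of 7 measured Leydig cell markers 6 rose, with a mean level of 11.02 to 11.21 on Fn adult arrays and 9.35 to 9.58 on Wt P21 arrays. Star, which brings cholesterol to the first P450 enzyme of steroid synthesis, was at 12.25, 11.70 and 11.84 in Fn adult and at 10.04, 9.10 and 10.33 in Wt P21. Of 11 macrophage markers 8 rose, with a mean level of 9.27 to 9.31 on Fn adult arrays and 8.49 to 8.61 on Wt P21 arrays. The mean level of 6 hepatocyte markers was 6.67 to 6.74 in Fn adult and 6.93 to 7.00 in Wt P21. Of these 6, 5 had lower values in Fn adult, and Ahsg fell (difference -0.86, limma adjusted p = 0.0135). The level of Alb, the liver's main plasma protein, was 5.83 to 5.92 in Fn adult and 5.84 to 6.49 in Wt P21. None of 9 markers of haploid spermatids passed (2 higher and 1 lower at an unadjusted p under 0.05 in limma), with a mean level of 8.45 to 8.81 in Fn adult and 8.06 to 8.86 in Wt P21. Of 11 Sertoli cell markers 10 had higher values, Trf, Clu and Gata4 rose and Amh fell, with a mean level of 10.81 to 10.86 in Fn adult and 10.35 to 10.74 in Wt P21. Of 7 spermatogonial markers Kit and Etv5 rose, but 4 had lower values and the median difference was -0.08. Of 9 pachytene spermatocyte markers 8 had lower values, 6 of them without overlap, and Piwil1 and Ybx2 fell, with a mean level of 11.47 to 11.70 in Fn adult and 11.81 to 12.23 in Wt P21. The Wt P21 arrays differed among themselves in genes of neighbouring tissue. The mean level of 6 epididymal markers was 6.04, 6.05 and 6.11 on the Fn adult arrays and 7.66, 7.05 and 6.40 on the Wt P21 arrays. The epididymal gene Crisp1 was at 4.03, 4.70 and 4.28 on the Fn adult arrays and at 10.26, 8.74 and 4.30 on the Wt P21 arrays, so that it was high on Wt P21 arrays 1 and 2 alone. Spink8 had the same order, at 8.95, 7.04 and 5.70 on the Wt P21 arrays, whereas Defb20, at 6.59, 6.94 and 7.73, and Rnase10, at 6.11, 6.00 and 6.95, were highest on Wt P21 array 3. The mean level of 5 adipocyte markers was 7.49, 7.33 and 7.15 on the Fn adult arrays and 7.58, 7.14 and 8.30 on the Wt P21 arrays. The adipocyte gene Fabp4 was at 7.80, 7.32 and 6.63 on the Fn adult arrays and at 7.31, 6.43 and 9.17 on the Wt P21 arrays, highest on Wt P21 array 3.

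The P450 genes that passed the test were mostly higher in Fn adult testes, and they came from several branches of the family. Of the 61 genes, 9 rose (14.8%), 1 fell (1.64%) and 51 did not pass. Over all genes tested, 8.07% rose and 0.914% fell, and 89.8% of calls were rises. After quantile normalization 64.6% of the calls over all genes were rises. At an unadjusted p under 0.05 in limma, 13 of the 61 P450 genes were higher and 5 lower, against 3136 and 915 of all 15207 genes. The Fn adult arrays all lay above the Wt P21 arrays for 14 genes (23%, against 25.6% of all genes) and all below them for 8 (13.1%, against 8.96% of all genes). The median difference was -0.07 over the 61 genes and 0.07 over all genes, and 43 of the 61 had both group means below the lower quartile. Of these 43, 42 did not pass and the other was Cyp2j6. Values were higher in Fn adult for 26 genes (42.6%) and lower for 35 (57.4%), against 58.7% of all genes with higher values and 41.2% with lower ones. Leaving out an array moved the count of rises by over 1.5 times in 2 instances, to 5 without Fn adult array 1 and to 5 without Fn adult array 3, and the count of falls to 0 without Fn adult array 1 and to 3 without Wt P21 array 3.

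**Figure D1:**
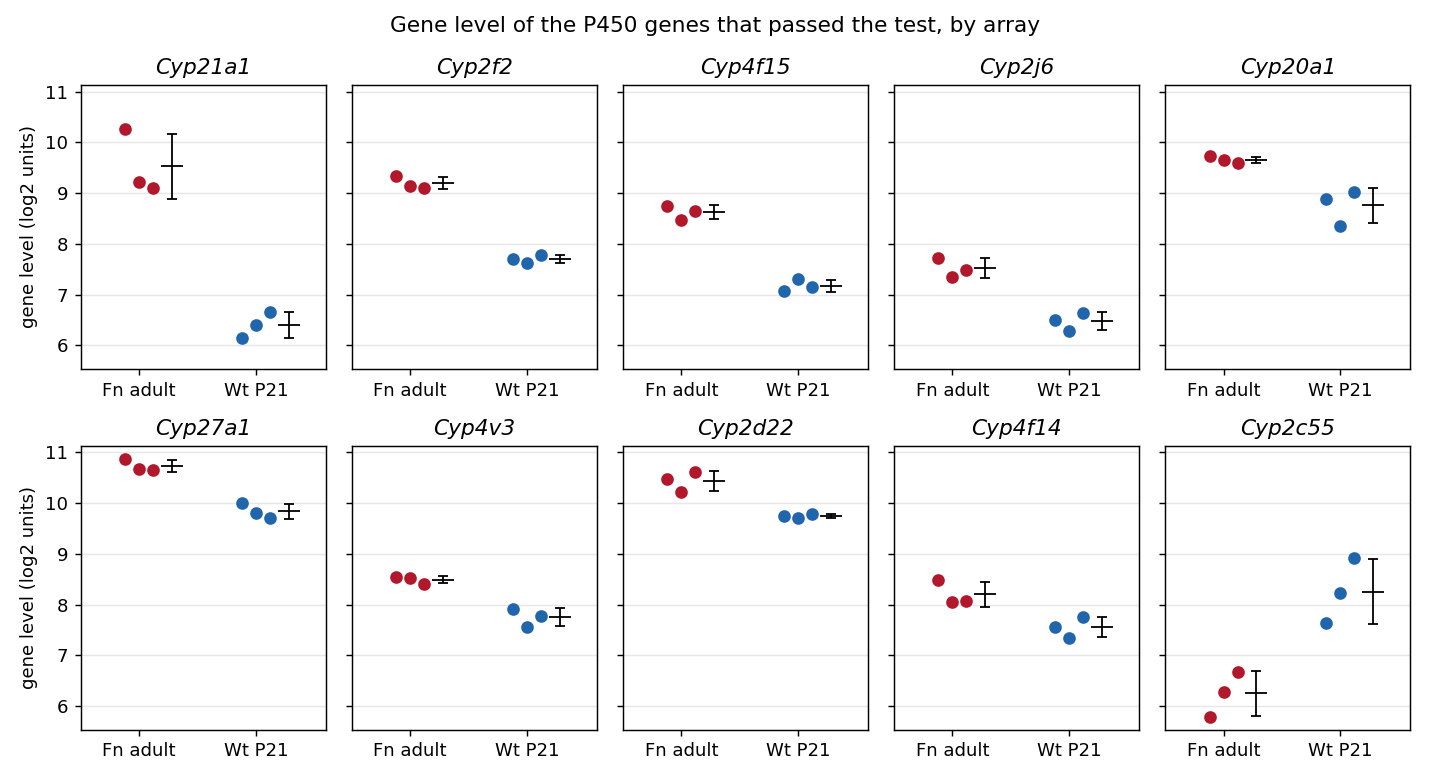
Gene level in log2 units on each array for the 10 P450 genes that passed the test, with Fn adult arrays in red on the left of each panel and Wt P21 arrays in blue on the right; the black bar is the group mean with its SD. In 9 panels all Fn adult points lie above all Wt P21 points, and in the Cyp2c55 panel they lie below.

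The promoters of the risers with the greatest differences for which RefSeq lists one, and that of the single faller, are shown as the 250 bases before the start of transcription, from assembly GRCm38.p6. The capitals mark a match to AAGGTCA, the core of the site for the steroidogenic factor Nr5a1, in Cyp2f2 (chr7:27119705-27119954, + strand) and to the TATA box TATAAA in Cyp2c55 (chr19:39006769-39007018, + strand). The Cyp4f15 window (chr17:32685409-32685658, + strand) held neither.
Cyp2f2: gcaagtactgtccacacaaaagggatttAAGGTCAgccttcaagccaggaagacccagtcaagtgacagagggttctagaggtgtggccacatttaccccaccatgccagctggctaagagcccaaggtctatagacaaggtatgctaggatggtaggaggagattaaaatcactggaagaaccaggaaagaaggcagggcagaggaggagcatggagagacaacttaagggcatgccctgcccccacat
Cyp4f15: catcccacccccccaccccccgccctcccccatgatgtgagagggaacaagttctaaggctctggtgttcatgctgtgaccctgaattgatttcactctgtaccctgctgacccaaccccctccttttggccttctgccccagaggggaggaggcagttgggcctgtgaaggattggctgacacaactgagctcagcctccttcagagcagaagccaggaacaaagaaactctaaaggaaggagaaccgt
Cyp2c55: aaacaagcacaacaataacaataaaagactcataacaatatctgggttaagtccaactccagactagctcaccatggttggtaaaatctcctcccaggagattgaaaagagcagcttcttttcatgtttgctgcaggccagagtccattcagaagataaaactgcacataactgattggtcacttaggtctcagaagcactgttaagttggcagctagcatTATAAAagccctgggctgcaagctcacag

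Both motifs were searched on both strands. AAGGTCA lay 222 to 216 bases before the Cyp2f2 start. It was found in 4.1% of 27025 listed promoters and in 3 of the 45 P450 promoters listed (6.7%). TATAAA lay 29 to 24 bases before the Cyp2c55 start, and was found in 13.0% of all promoters and in 15 of the 45 P450 promoters (33.3%). Of the 8 genes that passed and had a listed promoter, Cyp2f2 alone held the first motif and Cyp2c55 alone the second. A match describes the letters of the window and is not a measured binding site.

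Cyp21a1, the steroid hydroxylase of the adrenal cortex, had the widest difference of the family. It was at 10.26, 9.22 and 9.10 on the Fn adult arrays and at 6.14, 6.39 and 6.65 on the Wt P21 arrays. The groups were far apart, with Fn adult array 1 about a log2 unit above the other two. The difference was 3.13 ± 0.295 (SE, n = 3 per group; limma adjusted p = 0.000821), and the Wt P21 mean lay below the lower quartile. All 8 probe sets were higher in Fn adult, by 0.86 to 4.39, and 6 of them passed. RefSeq places Cyp21a1 on chromosome 17 beside the complement gene C4b, overlapping Tnxa, and a near-identical pseudogene copy, Cyp21a2-ps, shares further probe sets with it, so that the 2 copies may share signal here too. The other steroid hormone gene left in by the rule, Cyp11b2, the aldosterone synthase, was at 7.48, 7.32 and 7.44 in Fn adult and at 7.35, 7.49 and 7.31 in Wt P21. These values overlapped (difference 0.03, adjusted p = 0.889), and the sign turned after quantile normalization, with brighter probe sets alone and without Wt P21 array 3.

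For comparison, 3 of the 4 P450 genes left out by name rose as well. The Leydig cell enzymes Cyp11a1 and Cyp17a1, which open the androgen pathway, rose 3.20-fold (adjusted p = 0.00265) and 2.93-fold (adjusted p = 0.00326). Cyp51, a demethylase of cholesterol synthesis, rose 2.63-fold (adjusted p = 0.00332). Cyp26b1, the retinoic acid hydroxylase of the testis, differed by 0.48 and did not pass (adjusted p = 0.0852). Most of the Leydig cell and macrophage markers given above and 3 of the Sertoli cell markers rose, as did 9 of the 61 P450 genes. Of the 7 spermatogonial markers Kit and Etv5 rose and 4 had lower values, as had 8 of the 9 pachytene markers. The part of these cells in the results was not tested.

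Family 2 was the largest branch, with 32 genes, of which 3 rose (9.38%, against 8.07% of all genes), 1 fell and 28 did not pass; its median difference was -0.11 and 26 of its genes were below the lower quartile in both groups. Cyp2f2, an enzyme known from the club cells of the mouse lung, where it activates naphthalene, was at 9.34, 9.15 and 9.10 in Fn adult testes and at 7.69, 7.62 and 7.78 in Wt P21 testes. The replicates lay close together in each group and the gap between groups was several times their spread. Cyp2f2 rose 2.82-fold (difference 1.50 ± 0.126, SE, adjusted p = 0.000453), with all 13 probe sets higher and 11 of them past the test. Its neighbour on chromosome 7, Cyp2a12, was at 4.87, 5.20 and 4.91 in Fn adult and at 4.88, 4.76 and 5.23 in Wt P21, and these values overlapped.

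Cyp2j6 belongs to the subfamily whose enzymes turn arachidonic acid into epoxides. It was at 7.73, 7.36 and 7.49 in Fn adult and at 6.49, 6.29 and 6.64 in Wt P21, dim in both groups yet without overlap. It rose by 1.05 ± 0.151 (SE, adjusted p = 0.00581), with all 10 probe sets higher and 4 past the test. With brighter probe sets alone the difference was 0.50 (adjusted p = 0.0236). The neighbouring gene Cyp2j9 was at 7.10, 7.14 and 7.07 in Fn adult and at 6.83, 6.79 and 6.91 in Wt P21, without overlap but with a difference of 0.26 that did not pass (adjusted p = 0.186). The mean of its probe sets in place of the median gave 0.46 for Cyp2j9 and an adjusted p of 0.0138. The other 3 genes of the subfamily differed by -0.32 to 0.08 and none passed.

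Cyp2d22, the mouse relative of the human drug enzyme CYP2D6, was at 10.48, 10.22 and 10.61 in Fn adult and at 9.76, 9.70 and 9.78 in Wt P21. It rose 1.62-fold (difference 0.69 ± 0.137, SE, adjusted p = 0.0199). Of its 10 probe sets 9 were higher and 4 passed. The tenth, at 10.52, 10.41 and 10.74 in Fn adult and 10.64, 10.92 and 10.24 in Wt P21, differed by -0.04. The call was lost without Fn adult array 1 (adjusted p = 0.109), without Fn adult array 3 (0.0971), without Wt P21 array 2 (0.0551) and after quantile normalization (0.0512). None of the other 7 genes of subfamily 2d passed. Among them Cyp2d26 was at 8.56, 8.96 and 8.64 in Fn adult and at 9.19, 8.91 and 10.14 in Wt P21, where array 3 stood above all others (difference -0.70, adjusted p = 0.171).

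Cyp2c55, whose enzyme hydroxylates and epoxidises arachidonic acid and is known from the mouse colon, was the single gene that fell. It was at 5.79, 6.28 and 6.68 in Fn adult and at 7.63, 8.22 and 8.91 in Wt P21, with wide spread in both groups but no overlap. The difference was -2.01 ± 0.328 (SE, adjusted p = 0.00972), and the Fn adult mean lay below the lower quartile. Of 11 probe sets 10 were lower and 6 passed, with differences down to -2.49, and the one higher probe set differed by 0.49. Without Fn adult array 1 the difference was -1.78 and the adjusted p 0.0515. Cyp2c55 was highest on Wt P21 array 3, as were the epididymal genes Defb20 and Rnase10 and the adipocyte gene Fabp4, and lowest on Wt P21 array 1, where Crisp1 and Spink8 were highest. The part of other tissue in this difference was not tested. None of the other 9 genes of subfamily 2c passed. Of the 10 genes, 8 had lower values in Fn adult (80%, against 41.2% of all genes), and 8 had both group means below the lower quartile. Subfamilies 1a and 3a (100% each) and 2b and 2d (75% each) also had mostly lower values, while 2j (40%), 4a (50%) and 4f (16.7%) did not. Nearest to the threshold among the other genes of 2c was Cyp2c39, a gene far below the lower quartile. It was at 4.64, 4.99 and 4.95 in Fn adult and at 5.22, 5.59 and 5.48 in Wt P21 (difference -0.57, limma adjusted p = 0.056). After quantile normalization its difference was -0.64 and its adjusted p 0.0368.

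Cyp2e1, the ethanol-oxidising enzyme, was at 8.11, 6.93 and 6.46 in Fn adult and at 6.44, 6.22 and 7.12 in Wt P21. One Fn adult array was high and the other two overlapped with Wt P21, and the difference of 0.57 had a 95% interval of -0.35 to 1.48 (adjusted p = 0.406). It was 0.10 without Fn adult array 1 and 0.92 without Fn adult array 3. Cyp2s1, an enzyme of epithelia outside the liver, was at 8.99, 9.07 and 9.18 in Fn adult and at 9.62, 9.44 and 9.05 in Wt P21 (difference -0.29, adjusted p = 0.297). Without Wt P21 array 3, the one that overlapped, its difference was -0.45 and its adjusted p 0.0422, and without Wt P21 array 1 they were -0.17 and 0.573. Cyp2b9, with 4 probe sets, was at 6.31, 4.64 and 4.26 in Fn adult and at 6.06, 4.99 and 4.20 in Wt P21, a wide spread within each group. One of its probe sets was at 6.97, 4.04 and 3.22 in Fn adult and at 6.94, 4.67 and 2.77 in Wt P21, a range of several log2 units within each group and a difference of -0.05 between them.

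The 6 genes of families 1 and 3, the classical enzymes of drug and pollutant oxidation, included no gene that passed in limma (0 also at an unadjusted p under 0.05), and their median difference was -0.10. Cyp1b1, which hydroxylates oestrogens and is the family 1 gene of steroid-making tissue, was at 8.87, 8.66 and 8.28 in Fn adult and at 8.69, 7.75 and 7.93 in Wt P21. Wt P21 array 1 lay among the Fn adult arrays, and the difference of 0.48 did not pass (adjusted p = 0.271). With the mean of the probe sets it was 0.63 and the adjusted p 0.0282. Cyp1a1 and Cyp1a2, the main targets of the dioxin receptor, differed by -0.24 and -0.09 with overlapping values. The 3 genes of subfamily 3a differed by -0.14 to -0.06, all of them below the lower quartile in both groups.

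Family 4, the fatty acid hydroxylases, held 11 genes. Of these, 3 rose (27.3%, against 8.07% of all genes), none fell and 8 did not pass. The median difference of family 4 was 0.18. Cyp4f15 was at 8.75, 8.47 and 8.64 in Fn adult and at 7.07, 7.30 and 7.14 in Wt P21, with more than a log2 unit between the nearest arrays of the groups. It rose by 1.45 ± 0.133 (SE, adjusted p = 0.000719), and all 15 probe sets were higher, 10 of them past the test. The Wt P21 mean lay below the lower quartile. Cyp4f14, a leukotriene hydroxylase, was at 8.49, 8.05 and 8.07 in Fn adult and at 7.56, 7.35 and 7.76 in Wt P21. It rose by 0.65 ± 0.169 (SE, adjusted p = 0.0498), with all 15 probe sets higher and 5 past the test. This call was at the edge of the threshold: it was lost without any one of the arrays except Wt P21 array 3, with adjusted p between 0.0997 and 0.204, and after quantile normalization (0.0559) and with the replicate number as a block (0.0632).

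Cyp4f13, adjacent to Cyp4f14 on chromosome 17, was at 10.26, 10.15 and 10.37 in Fn adult and at 10.00, 9.86 and 9.76 in Wt P21. The groups did not overlap and 15 of 16 probe sets were higher, but the difference of 0.38 did not pass (adjusted p = 0.101). Subfamily 4f had a median difference of 0.28. Of its 6 genes 2 rose (33.3%, against 8.07% of all genes) and 5 had higher values (83.3%, against 58.7%). Cyp4v3, the mouse counterpart of the human retinal fatty acid hydroxylase CYP4V2, was at 8.54, 8.52 and 8.41 in Fn adult and at 7.92, 7.57 and 7.77 in Wt P21. It rose 1.67-fold (difference 0.74 ± 0.134, SE, adjusted p = 0.0142), with all 14 probe sets higher and 8 past the test. It lies beside Klkb1 on chromosome 8 and overlaps the gene model Gm30504, and probe sets annotated to both Cyp4v3 and Klkb1 were not counted in its level. The call was lost without Fn adult array 1 (0.0858), array 2 (0.0693) or array 3 (0.0594). Subfamily 4a, targets of the fatty acid receptor Ppara in liver, had 2 genes with differences of -0.12 and 0.18, neither past the test.

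**Figure D2:**
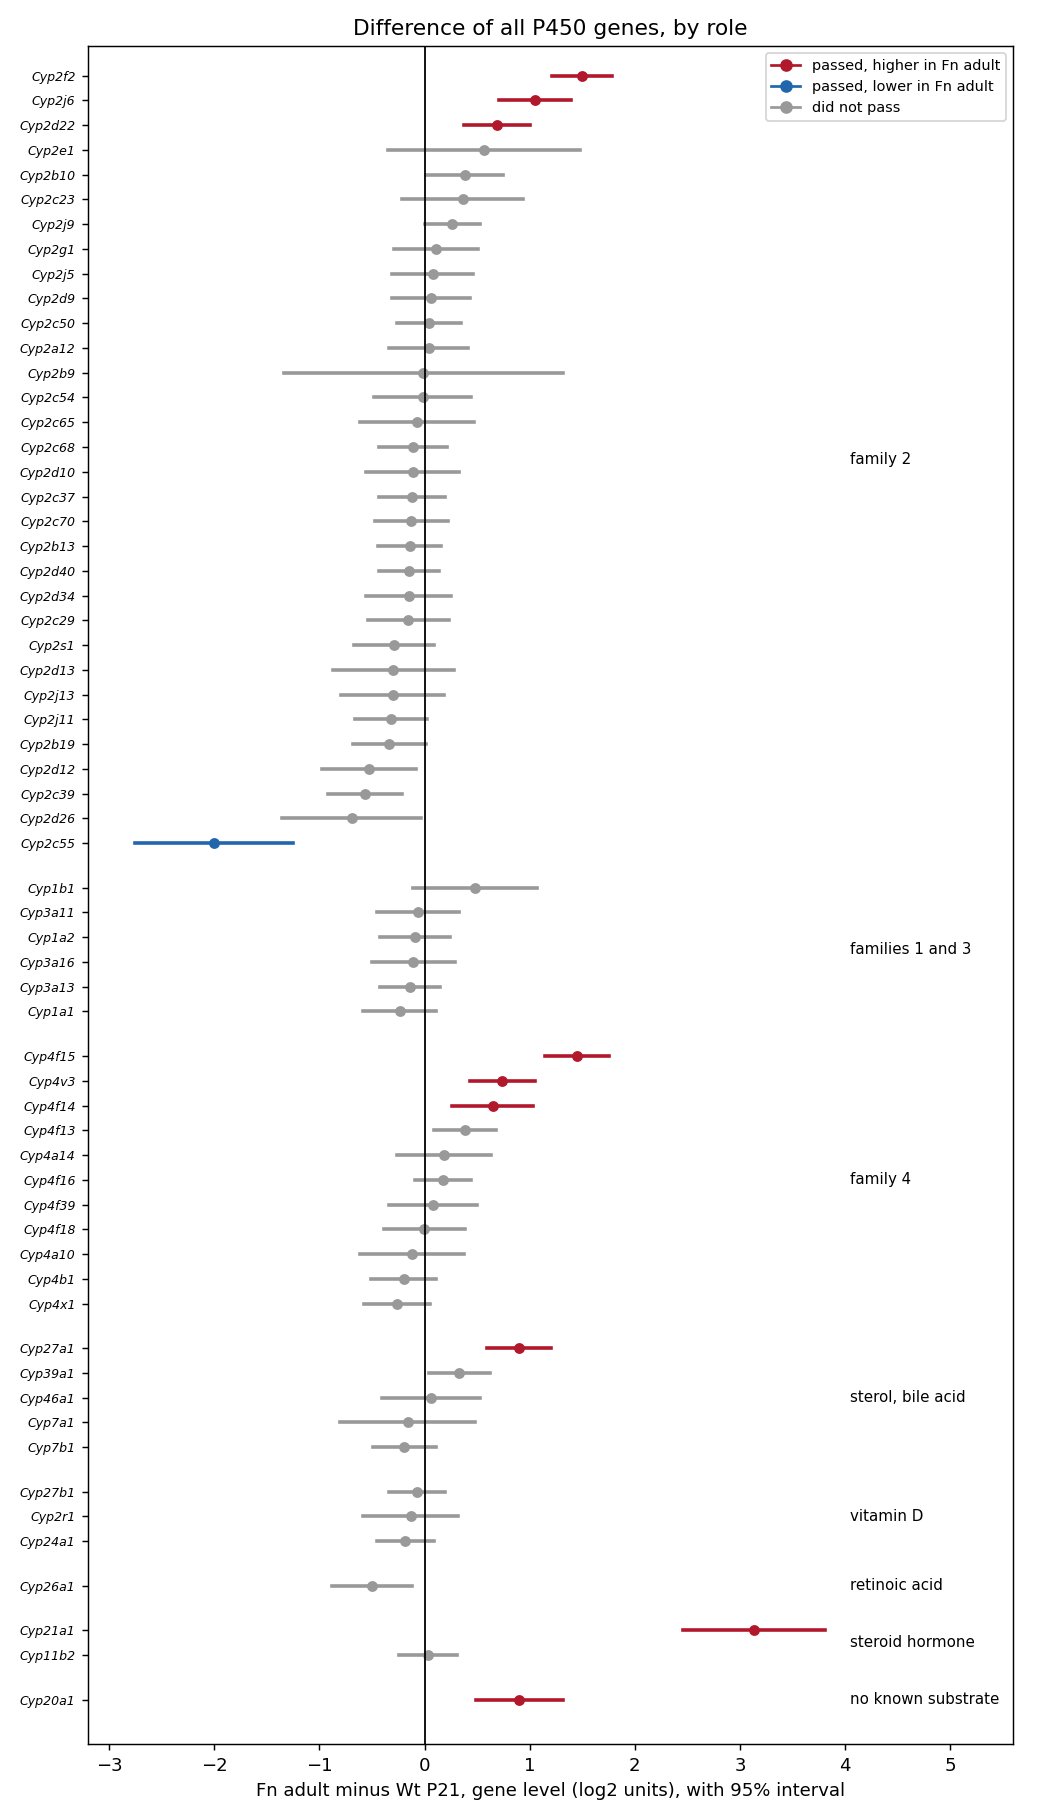
Difference of the gene level between Fn adult and Wt P21 (horizontal axis, log2 units) for all 61 P450 genes, grouped by role, with the 95% interval of the difference as a line. Red points rose, the blue point fell and grey points did not pass; most grey points lie within 0.5 log2 units of 0.

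Among the 5 genes of sterol and bile acid metabolism, Cyp27a1 rose (20%, against 8.07% of all genes) and 4 did not pass. Cyp27a1, the mitochondrial enzyme that hydroxylates the side chain of cholesterol, was at 10.88, 10.67 and 10.65 in Fn adult and at 10.00, 9.81 and 9.71 in Wt P21, with a clear gap between the groups. It rose 1.86-fold (difference 0.90 ± 0.135, SE, adjusted p = 0.00694), and all 15 probe sets were higher, by 0.62 to 1.35, with 12 past the test. It passed in all 13 alternative settings, with differences of 0.76 to 0.98. Cyp39a1, an oxysterol hydroxylase, was at 8.18, 8.10 and 7.97 in Fn adult and at 7.87, 7.72 and 7.66 in Wt P21, without overlap but short of the threshold (difference 0.33, adjusted p = 0.137). Cyp46a1, which hydroxylates cholesterol in neurons, was at 9.17, 9.23 and 9.18 in Fn adult and at 8.97, 8.80 and 9.61 in Wt P21. Here Wt P21 array 3 lay above every other array and the difference was 0.06 (adjusted p = 0.873), with a sign that turned after quantile normalization, with the mean of probe sets, with brighter probe sets alone and without Wt P21 array 1 or array 2. Cyp7b1 and Cyp7a1, hydroxylases of the bile acid pathways of the liver, differed by -0.19 and -0.16 with overlapping values.

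None of the 3 genes of vitamin D metabolism passed in limma (0 also at an unadjusted p under 0.05), and their median difference was -0.13. Cyp2r1, the first hydroxylase of the pathway, was at 8.92, 9.07 and 9.04 in Fn adult and at 8.83, 9.00 and 9.60 in Wt P21 (difference -0.13, adjusted p = 0.709). Its sign turned without Wt P21 array 3 (0.09). Cyp27b1, which makes the active hormone, differed by -0.08. Cyp24a1, which degrades it, was at 7.06, 7.13 and 7.11 in Fn adult and at 7.40, 7.22 and 7.24 in Wt P21, without overlap but with a difference of -0.19 that did not pass (adjusted p = 0.359). The retinoic acid hydroxylase Cyp26a1 was at 6.64, 6.20 and 6.46 in Fn adult and at 7.17, 6.89 and 6.73 in Wt P21. The Fn adult arrays lay below the Wt P21 arrays on this dim gene, and the difference of -0.50 did not pass (adjusted p = 0.0997). With the mean of probe sets it was -0.45 with an adjusted p of 0.0311, and without Wt P21 array 3 it was -0.60 with an adjusted p of 0.0371.

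Cyp20a1, an orphan enzyme with no settled substrate, was at 9.73, 9.65 and 9.60 in Fn adult and at 8.89, 8.36 and 9.02 in Wt P21. The Fn adult arrays were tightly grouped above a more widely spread Wt P21 group. Cyp20a1 rose 1.87-fold (difference 0.90 ± 0.180, SE, adjusted p = 0.0201), with all 14 probe sets higher and 5 past the test. Without Fn adult array 1, 2 or 3 the adjusted p was 0.106, 0.0774 and 0.0764.

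At the level of single probe sets, 70 of the 666 P450 probe sets were called higher (10.5%, against 3.78% of all probe sets with 1 symbol) and 12 lower (1.8%, against 0.402%). Most of the higher ones belonged to the 9 genes that rose. These counts leaned on every Fn adult array: without array 1, 2 or 3, 24, 34 and 24 were called higher and 3, 4 and 5 lower. Without Wt P21 array 1 there were 5 called lower, and without Wt P21 array 2 there were 40 called higher and 5 lower. The plot of probe sets shows that the differences of a gene's probe sets had one sign for 8 of the 10 genes, and that Cyp2d22 and Cyp2c55 each had 1 probe set on the other side of 0.

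**Figure D3:**
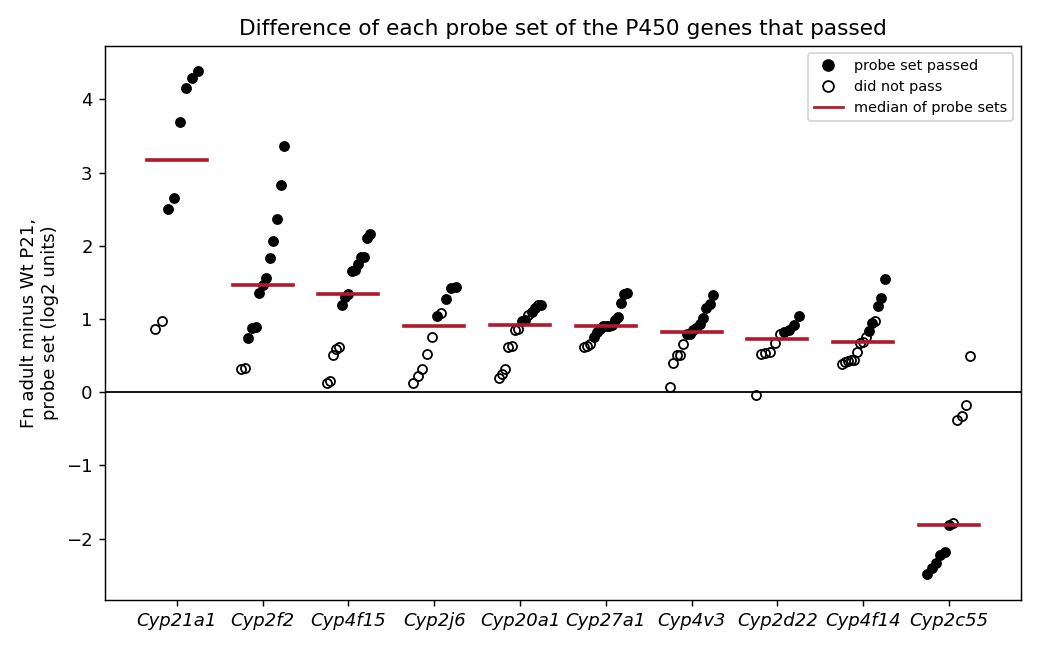
Difference between Fn adult and Wt P21 (vertical axis, log2 units) of each probe set of the 10 P450 genes that passed; filled points passed the probe set test, open points did not, and red bars are medians. Cyp21a1 spreads from 0.86 to 4.39 and Cyp27a1 from 0.62 to 1.35.

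The splicing index, the value of a probe set less the level of its gene, was tested for 61 probe sets of 7 P450 genes bright enough to be read, those of Cyp27a1, Cyp4f13, Cyp20a1, Cyp46a1, Cyp2d22, Cyp2s1 and Cyp2r1. At an unadjusted p under 0.05 in limma there were 18, and the share of all probe sets at that level is not given here. None passed at the adjusted threshold (adjusted p 0.229 or more), against 0.0113% of 88361 probe sets over all genes. The nearest was in Cyp20a1, where the index was 0.38, 0.45 and 0.41 in Fn adult and 1.06, 1.24 and 0.90 in Wt P21. The groups did not overlap, with a difference of -0.66 ± 0.100 (SE, adjusted p = 0.229). The probe set of Cyp2d22 that did not rise had an index of 0.03, 0.19 and 0.13 in Fn adult and of 0.88, 1.22 and 0.46 in Wt P21 (difference -0.74 ± 0.189, SE, adjusted p = 0.414).

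All 7 measured genes that supply electrons and heme to P450 enzymes had higher values in Fn adult (against 58.7% of all genes). Of the 7, 4 were without overlap between the groups (against 25.6% of all genes) and 1 rose (14.3%, against 8.07%). The median difference was 0.44 against 0.07 over all genes. Pgrmc1, a heme-binding membrane protein that binds P450 enzymes, was at 13.04, 13.02 and 13.03 in Fn adult and at 12.50, 12.38 and 12.06 in Wt P21 and rose 1.65-fold (adjusted p = 0.0203). Por, the reductase that feeds most P450 enzymes of the endoplasmic reticulum, was at 9.90, 9.62 and 9.54 in Fn adult and at 9.39, 9.16 and 9.16 in Wt P21. The groups did not overlap, but the difference of 0.45 was short of the threshold (limma adjusted p = 0.0856). Fdx1, the mitochondrial donor used by Cyp27a1 and Cyp11a1, was at 9.59, 9.34 and 9.50 in Fn adult and at 9.18, 8.21 and 9.44 in Wt P21, where array 2 was low and array 3 overlapped with the Fn adult arrays (difference 0.54, adjusted p = 0.265). Alas1, the first enzyme of heme synthesis, differed by 0.08 (adjusted p = 0.868).

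Of 8 measured genes that act on epoxides and eicosanoids, 3 rose (37.5%, against 8.07% of all genes) and none fell. The median difference of the 8 was 0.55. Ephx1, the microsomal epoxide hydrolase that opens epoxides made by P450 enzymes, was at 12.68, 12.42 and 12.58 in Fn adult and at 10.25, 10.15 and 10.30 in Wt P21. It rose 5.02-fold (difference 2.33 ± 0.127, SE, adjusted p = 4.2e-05), more than any P450 gene except Cyp21a1. Ephx2, the soluble hydrolase that opens fatty acid epoxides, rose by 0.75 (adjusted p = 0.0253), and Alox12, a lipoxygenase of arachidonic acid, rose by 0.71 (adjusted p = 0.0176). Ptgis, the prostacyclin synthase, differed by 0.55 and did not pass (adjusted p = 0.0664). Tbxas1, the thromboxane synthase and a macrophage enzyme, was at 6.70, 6.47 and 6.65 in Fn adult and at 6.78, 6.64 and 6.79 in Wt P21 (difference -0.13, adjusted p = 0.559).

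Of 13 measured nuclear receptors and partners that control P450 genes in other tissues, 3 rose (23.1%, against 8.07% of all genes). The median difference of the 13 was 0.06. Nr5a1, the regulator of steroid synthesis genes in Leydig cells, was at 9.86, 9.70 and 9.73 in Fn adult and at 9.24, 8.77 and 9.05 in Wt P21 and rose 1.67-fold (adjusted p = 0.0206). Rxra, the partner of some of these receptors, rose 1.59-fold (adjusted p = 0.0137), and the oestrogen receptor Esr1 rose 1.57-fold (adjusted p = 0.0134). Ppara was at 8.90, 8.22 and 8.45 in Fn adult and at 7.62, 8.04 and 7.84 in Wt P21 and did not pass (difference 0.69, adjusted p = 0.0626). The foreign-compound receptors Nr1i2, Nr1i3 and Ahr differed by -0.31, -0.15 and 0.21, and none passed.

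**Figure D4:**
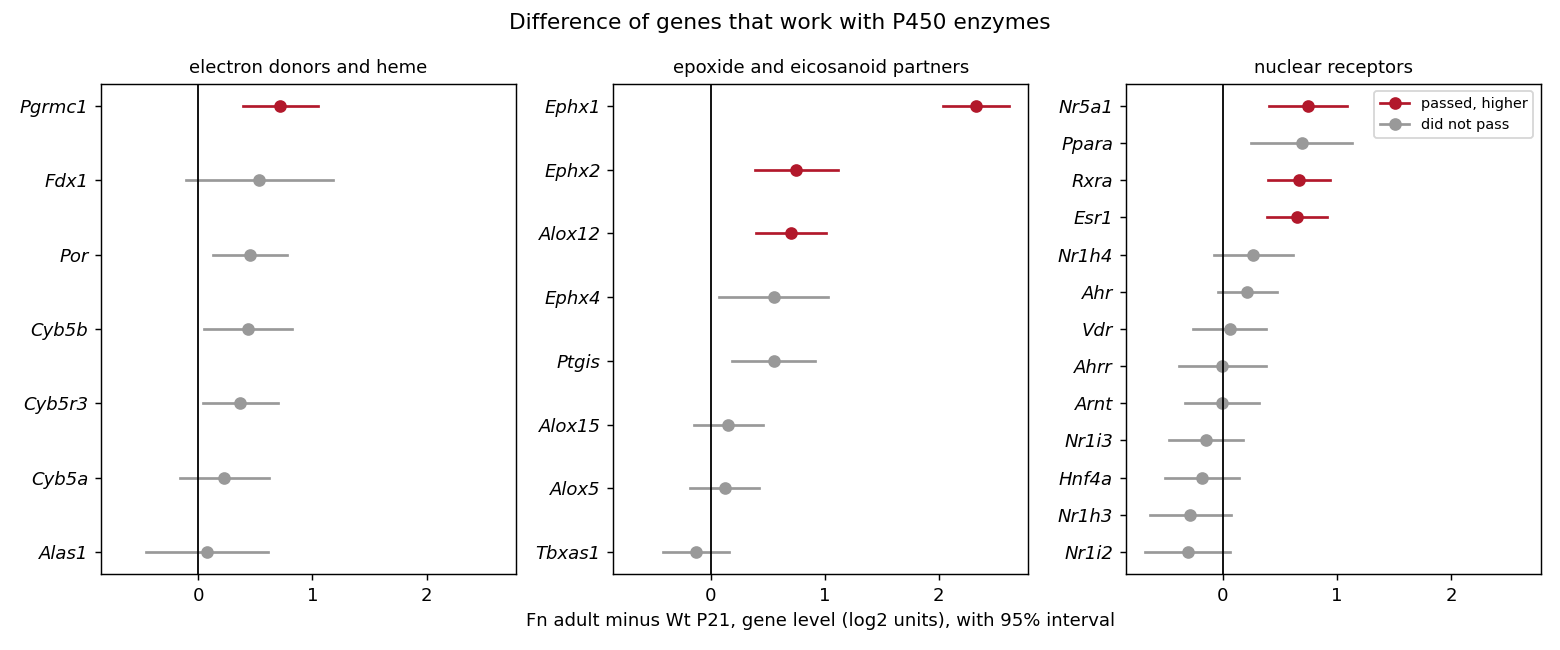
Difference between Fn adult and Wt P21 (horizontal axis, log2 units, with 95% interval) of measured electron donors and heme genes, epoxide and eicosanoid genes, and nuclear receptors. Red points rose and grey points did not pass; Ephx1 stands apart at 2.33.

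By chromosome, 3 of the 8 P450 genes on chromosome 17 rose and all 8 had higher values in Fn adult, with a median difference of 0.43, against 8.07% of all genes that rose and 58.7% with higher values. These are Cyp21a1, Cyp1b1, Cyp39a1 and 5 genes of subfamily 4f, the last of which are related copies and not independent. Of the 11 on chromosome 19, where subfamily 2c lies, none rose, 1 fell, and 9 had lower values (81.8%, against 41.2% of all genes). The median difference of the 11 was -0.12, and 9 of them had both group means below the lower quartile. The 10 genes of subfamily 2c among them are likewise related copies and not independent. Chromosomes 4, 7 and 15 hold 10, 10 and 9 of the P450 genes, and 1 gene rose on each. Higher values were seen for 4, 5 and 3 of their genes and lower ones for 6, 5 and 6. Their median differences were -0.14, 0.01 and -0.15. The remaining chromosomes, each with fewer P450 genes, are not described in this way. At the limit of 3 probe sets, Cyp2c65 was counted, with a difference of -0.07. Cyp8b1, Cyp3a59 and Cyp4a31, with 2 probe sets, and Cyp2a4 and Cyp2c67, with 1, were not, and their probe sets differed by -0.65 to 0.09.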

How the data were processed

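Total RNA of whole testes, 3 Fn adult and 3 Wt P21 preparations, was hybridised to Affymetrix exon arrays of the mouse. The authors deposited log2 values for 229581 probe sets; the normalization behind them is not given in the sources used here. The submitters' processing notes name build mm8, and the methods name the EASANA system. Of the probe sets, 209279 carry 1 gene symbol, 4446 several and 15856 none; of 16380 symbols, 14190 were current, 2145 were updated through RefSeq, 39 were ambiguous and 6 unmatched.

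The median over probe sets was taken for the 15207 genes with 3 or more, and groups were compared with limma 3.58.1 (R 4.3.3; lmFit, eBayes, Benjamini-Hochberg over all genes), as Fn adult minus Wt P21. Probe sets were tested alike. The splicing index used genes and probe sets with a mean above 9.07. Scripts were tested on simulated data. Array number limits precision; depth does not apply. Alternatives were quantile normalization, a replicate block, trend and robust eBayes, means, brighter probe sets or genes alone, a minimum of 5 probe sets, and leaving out each array.

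Described in full are all genes that passed, the 2 of each role group with the highest mean signal, a set list of metabolic P450 genes and, of each partner list, up to 4 that passed. Cyp2a12, Cyp2j9, Cyp2d26, Cyp2c39, Cyp2b9, Cyp7a1 and some partner and marker genes were added after their values were seen. The genes and lists were chosen with earlier results of these data known.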

Additional observations from a re-analysis of the deposited data

Results flagged for a closer look

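Of the probe sets annotated to P450 genes, 184 entered the level of no P450 gene given above. In limma over all 229581 probe sets, 6 of the 184 were called higher in Fn adult (3.26%, against 3.68% of all probe sets). A further 2 were called lower (1.09%, against 0.37%). These calls are given here because they lie outside the levels of the P450 genes described. The share called higher was near that of all probe sets. Some of the 184 still count in the comparisons over all genes, as those of Cyp4a12a do (gene level difference -0.05, limma adjusted p = 0.894). A pair of probe sets shared by Cyp21a1 and its pseudogene copy Cyp21a2-ps differed by 2.99 and 2.60 (adjusted p 0.00323 and 0.0103). The first was at 9.98, 9.05 and 8.70 in Fn adult and at 6.39, 6.11 and 6.25 in Wt P21. Another shared by the same 2 differed by 1.675 and was not called (adjusted p 0.0583). A pair shared by Cyp4v3 and Klkb1 differed by 0.91 and 1.21 (adjusted p 0.0224 and 0.0267). Another of theirs differed by 0.67 and was not called (adjusted p 0.0856). A probe set of Cyp4a12a differed by 1.10, at 4.40, 4.89 and 4.08 in Fn adult and at 3.62, 3.39 and 3.04 in Wt P21 (adjusted p 0.0492). Of the 6 probe sets of Cyp4a12a it was the only one called, and 4 had lower values in Fn adult. One shared by Cyp3a25, Cyp3a57 and Cyp3a59 differed by 1.01 (adjusted p 0.0475). The probe sets of these last 2 calls, and the probe set of Cyp4v3 and Klkb1 that differed by 1.21, lay far below the lower quartile of every array. Of those called lower, one shared by Cyp3a11, Cyp3a41a and Cyp3a41b differed by -0.96 (adjusted p 0.026) and one shared by Cyp2c40 and Cyp2c68 by -0.86 (adjusted p 0.0405).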

How the results depend on the processing

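Of the 10 calls, Cyp21a1, Cyp2f2, Cyp4f15, Cyp2j6 and Cyp27a1 passed in every setting in which they were tested, Cyp2j6 at 0.50 with brighter probe sets alone, against 1.05. The count of P450 genes that fell was 2 after quantile normalization (Cyp2c55 and Cyp2c39), 2 with the mean of probe sets (Cyp2c55 and Cyp26a1) and 0 with genes above the lower quartile alone, which do not include Cyp2c55. The median difference of the P450 genes was 0.14 with brighter probe sets alone (33 genes) and 0.48 with genes above the lower quartile alone (17 genes), which leave out the dim genes. Leaving out 1 array gave 5 to 10 genes that rose, 0 to 3 that fell, 24 to 83 probe sets called higher and 3 to 17 called lower; the fewest rises were without Fn adult array 1 or 3 (5 each) and the most falls without Wt P21 array 3 (Cyp2c55, Cyp26a1 and Cyp2s1). Over all genes the calls were 826 higher and 452 lower after quantile normalization, against 1227 and 139 as deposited, and that scaling moved the median of all genes to -0.05, against 0.07. They were 1999 and 229 with the mean of probe sets, 306 and 19 without Fn adult array 1, and 2455 and 366 without Wt P21 array 3. The sign turned for Cyp11b2 (-0.071 after quantile normalization, -0.047 with brighter probe sets, -0.003 to 0.087 without 1 array), Cyp46a1 (-0.102, -0.006 with means, -0.014 with brighter probe sets, -0.102 to 0.307 without 1 array), Cyp1a2 (-0.188 to 0.038 without 1 array) and Cyp2r1 (-0.290 to 0.093 without 1 array). The cause was not tested.

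The arrays share only a replicate number: deviations of same-numbered arrays from their group means correlated at 0.24, -0.11 and -0.02 across genes. With the replicate block, 8 P450 genes rose and 1 fell, and 49 P450 probe sets were higher and 9 lower.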
